A study of Rattus norvegicus with 36 samples.

Results

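The genes described here are 10 transcriptional regulators of oxidative metabolism, namely the coactivators Ppargc1a (PGC-1α), Ppargc1b (PGC-1β) and Perm1, the estrogen-related receptors Esrra and Esrrg, the peroxisome proliferator-activated receptors Ppara and Ppard, the mitochondrial factors Nrf1 and Tfam, and the corepressor Nrip1. They were found by symbol among the probe sets that carry exactly 1 gene symbol, with the probe set of highest mean log2 signal taken for each gene. All 10 were measured, of 14217 genes with such a probe set. They were followed in 36 soleus muscles of adult female Sprague Dawley rats, 16 weeks old and 6 rats in each of 6 groups, 1 microarray per rat. The uninjured controls (CTR) had no contusion, and the other 5 groups had a moderate contusion of the thoracic spinal cord. Of these, 3 groups were left untrained and their muscles were taken 3 days (SCI3d), 8 days (SCI8d) or 14 days (SCI14d) after injury. The other groups had locomotor treadmill training (TM) in 20 min sessions from day 7, as 3 sessions, 2 of them on day 7 and 1 on day 8 (SCI8d + TM), or as 2 sessions per day for 5 days (SCI14d + TM), and their muscles were taken 8 h after the last session. The trained groups therefore differ from each other in the number of sessions as well as in the day. The whole left muscle was extracted, so that fewer cells of a type and less RNA per cell cannot be told apart.

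PGC-1 coactivators do not bind DNA themselves. They are recruited by nuclear receptors and other factors, among them the ERRs, the PPARs and nuclear respiratory factor 1, and raise transcription of genes of the respiratory chain, the citrate cycle and fatty acid oxidation. In slow, oxidative muscle such as the soleus this network is known to respond to contractile activity, and Perm1 is a muscle gene induced by PGC-1 and ERRs. Nrip1 (RIP140) recruits corepressors to the same receptors. The Nduf genes, taken here by the prefix of their symbol, code for the most part for subunits and assembly factors of respiratory complex I. The regulators are set against them below.

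The values are MAS 5.0 signals, a linear fluorescence intensity per probe set, and all differences are on the log2 scale. Median signal per array ran from 166 to 234, and in SCI3d it ran from 166 to 187, below all CTR arrays (190 to 198). Log2 signals of any 2 arrays correlated with r between 0.886 and 0.943. The GAPDH 3' to 5' ratio, a sign of RNA integrity, was above 1.3 in 3 arrays, CTR replicate 3 (1.61), SCI14d replicate 4 (1.35) and SCI14d + TM replicate 1 (1.33), and a count of regulators, partners or targets below is also given without them where it moved by at least 1.5 times. None of the 8 slow fiber markers passed the test in any comparison given here. Relative to CTR they averaged -0.13 on day 3, -0.05 on day 8 and -0.41 on day 14. By mean, 6 of the 8 were lower and 2 higher on day 3. On day 8, 4 were lower and 4 higher, and on day 14 all 8 were lower. Among them, Myh7 (slow myosin heavy chain) had a mean signal of 65500 in CTR, 66560 in SCI3d, 67190 in SCI8d and 52480 in SCI14d. Of 9 fast fiber markers, 4 rose and 1 fell on day 8, where 6.29% of all probe sets passed. By mean, 7 of the 9 were higher and 2 lower on day 8. The mean of the list was 1.33 above CTR in SCI8d and 1.48 above it in SCI14d. Myh1, a fast myosin heavy chain, was lower, with a mean signal of 11050 in CTR, 5645 in SCI3d and 4804 in SCI8d. The 8 adipocyte markers averaged -1.40 relative to CTR on day 3, with -0.96 on day 8 and -1.01 on day 14. On day 3, 5 of the 8 passed as lower and 1 as higher, where 16.5% of all probe sets passed. Cidea went against the mean of the list, with a mean signal of 2430 in CTR and 4956 in SCI3d. The mean of 4 erythrocyte markers was 1.73 above CTR in SCI3d, 1.67 above in SCI8d and 0.82 above in SCI14d. Fibroblast markers stood at -0.36 in SCI3d, 0.83 in SCI8d and 0.93 in SCI14d, and macrophage markers at 0.13, 0.395 and 0.50. By mean on day 3, 8 of 10 fibroblast markers were lower and 2 higher, and 9 of 13 macrophage markers were higher and 4 lower. Of the macrophage markers, Cd163 passed as higher (1.09, adjusted p = 0.0133) and Adgre1 as lower (-1.30, adjusted p = 0.0170) on day 3. Endothelial markers stood at -0.18 in SCI3d, -0.41 in SCI8d and -0.16 in SCI14d, with Cldn5 lower on day 8 (-0.88, adjusted p = 0.0417). Schwann cell markers stood at -0.16, -0.03 and -0.17, but 3 of the 6 were higher on average on day 3 and 4 on day 8. Among them, S100b was lower on day 3 (-2.02, adjusted p = 6.44e-05) and day 8 (-1.20, adjusted p = 0.0297). Mbp went the other way, at 0.84 (adjusted p = 0.122) and 0.44 (adjusted p = 0.545). The summed signal of the adipocyte markers ran from 17600 to 47520 in CTR, 9456 to 27920 in SCI3d, 12260 to 16090 in SCI8d and 10660 to 32610 in SCI14d. No marker was listed at a signal of 0. The part of these cell types in the results below was not tested.

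In untrained muscle the 3 coactivators, both ERRs and Ppara were lower than in CTR on day 3, and Perm1 and Esrra were lower on all 3 days. On day 3, 6 of the 10 genes fell and none rose, namely Ppargc1a, Ppargc1b, Perm1, Esrra, Esrrg and Ppara (limma, adjusted p under 0.05 over all probe sets; in the same comparison 16.5% of all probe sets passed and 9.24% passed as lower). On day 8, 2 were still lower, Perm1 and Esrra, where 6.29% of probe sets passed and 3.28% passed as lower. On day 14, 3 were lower, Perm1, Esrra and Esrrg, where 3.19% passed and 1.67% passed as lower. The median log2 fold change of the 10 genes was -1.24, -0.44 and -0.50 on the 3 days, beside -0.04, 0.04 and 0.08 over all probe sets. Ppard, Nrf1, Tfam and Nrip1 did not pass against CTR on any day. The 3 comparisons share the CTR arrays.

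**Figure D1:**
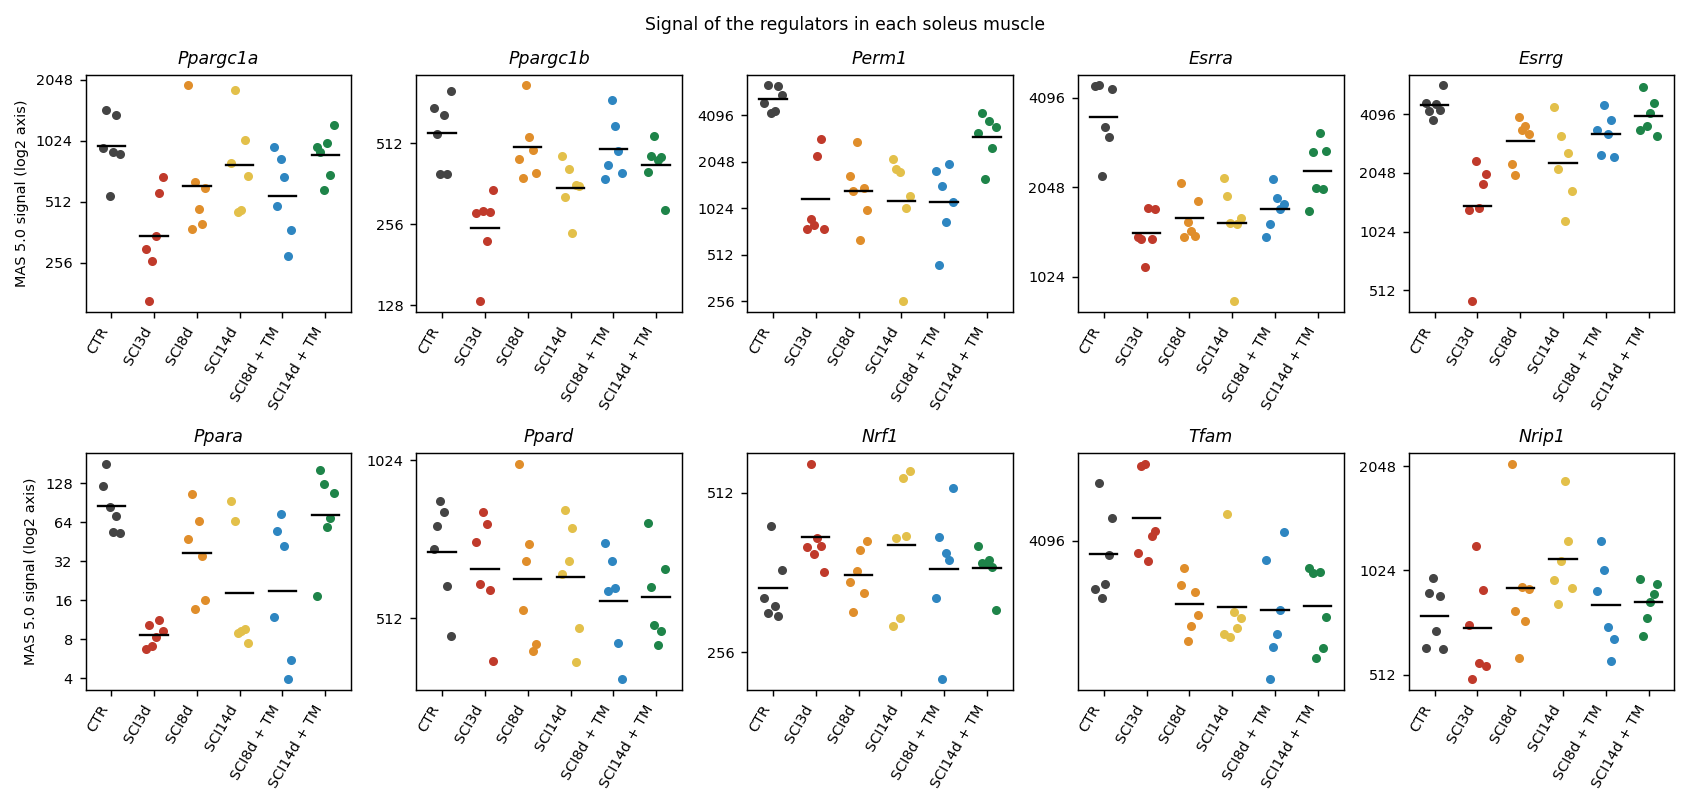
MAS 5.0 signal (vertical log2 axis, scaled per gene) of the 10 regulators in each muscle, 6 points per group in replicate order, with a bar at the geometric mean. Perm1 and Esrra in all untrained injured groups lie below every CTR array, while Nrf1, Ppard and Nrip1 overlap CTR in every group.

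Perm1 was low on all 3 days in untrained rats. Its signal was 4224 at the lowest, 5199 at the median and 6380 at the highest in CTR, and 749, 834 and 2854 in SCI3d. In SCI8d the lowest, median and highest signals were 639, 1354 and 2754, and in SCI14d they were 256, 1490 and 2112. Every injured untrained muscle was below every CTR muscle. The log2 fold change was -2.16 on day 3 (adjusted p = 0.000255), then -1.98 on day 8 (adjusted p = 0.00331) and finally -2.19 on day 14 (adjusted p = 0.00254), each with an SE of 0.41, so that the signal was lower by 4.47, 3.96 and 4.58 times. The SCI3d group was split, with replicates 4 and 5 at 2228 and 2854 and the other 4 arrays between 749 and 873.

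The promoter window of Perm1 is printed because this gene had, of the 10, the largest log2 fold change on days 8 and 14 among those that passed. It holds 250 bases before the annotated start and 50 from it (RefSeq, GRCr8, chr5:172081999-172082298, plus strand). It held no exact match to any of 4 motifs searched on both strands, the ERR site TNAAGGTCA, the NRF1 core GCATGCGC, the cyclic AMP response element TGACGTCA and the ETS site CCGGAAGT. No letters are in capitals, since none matched.
Perm1: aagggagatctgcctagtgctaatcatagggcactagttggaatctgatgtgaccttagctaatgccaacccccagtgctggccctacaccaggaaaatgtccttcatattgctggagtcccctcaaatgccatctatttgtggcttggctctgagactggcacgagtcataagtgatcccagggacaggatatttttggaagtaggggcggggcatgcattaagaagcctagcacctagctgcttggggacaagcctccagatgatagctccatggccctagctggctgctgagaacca

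The other windows with a match are printed around it, 100 bases each, with the matching letters in capitals. Of the 10 genes 9 had at least 1 promoter window (12 windows), and Ppard had none. Ppargc1a carries the cyclic AMP response element, a palindrome, at positions -181 to -174 from its start (chr14:63634081-63634180, plus strand), Esrra the NRF1 core at -115 to -108 (chr1:213543367-213543466, minus strand), Ppara the same core on both strands, overlapping, at -100 to -91 (chr7:118712462-118712561, plus strand), and Tfam the ETS site at -56 to -49 (chr20:17355271-17355370, plus strand).
Ppargc1a: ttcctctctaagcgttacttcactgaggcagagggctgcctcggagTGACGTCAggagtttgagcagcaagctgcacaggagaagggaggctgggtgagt
Esrra: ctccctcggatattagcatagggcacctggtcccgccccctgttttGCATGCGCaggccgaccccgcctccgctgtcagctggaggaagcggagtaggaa
Ppara: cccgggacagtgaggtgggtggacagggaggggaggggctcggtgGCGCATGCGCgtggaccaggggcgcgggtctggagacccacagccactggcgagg
Tfam: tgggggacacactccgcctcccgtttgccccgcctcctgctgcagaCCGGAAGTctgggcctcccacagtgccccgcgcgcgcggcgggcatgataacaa
Of all 33469 windows of 300 bases, 1.20% held the ERR site, 2.47% the NRF1 core, 1.83% the cyclic AMP response element and 3.81% the ETS site. Among 40 Nduf genes with a window, Ndufb4 held the ERR site, Ndufa11, Ndufa6, Ndufaf4 and Ndufaf5 the NRF1 core, Ndufb2 the cyclic AMP response element, and Ndufa13, Ndufb7 and Ndufs1 the ETS site. The shares are per window, whereas a gene was counted once if any of its windows matched, so that the 2 are not on the same scale. A match of letters is a description and not a bound site. No exact match to the ERR site was found in a window of the 9 genes, and near matches were not searched.

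Ppargc1a, the coactivator best known for its rise with contractile activity, was low on day 3 and variable afterwards. Its lowest, median and highest signals were 549, 918 and 1450 in CTR and 166, 323 and 680 in SCI3d, and the groups overlapped. Its log2 fold change on day 3 was -1.48 (SE 0.37, adjusted p = 0.00410). In SCI8d the signals were 377, 535 and 1922, and in SCI14d 458, 738 and 1814, with log2 fold changes of -0.66 (95% confidence interval -1.41 to 0.08, adjusted p = 0.309) and -0.32 (-1.06 to 0.43, adjusted p = 0.715). Replicate 1 of SCI8d and replicate 2 of SCI14d, at 1922 and 1814, exceeded every CTR array. From SCI3d to SCI14d it rose by 1.16 (SE 0.37, adjusted p = 0.0311). The second and the third Ppargc1a probe set, both dimmer, also fell on day 3, by -1.66 (adjusted p = 0.00263) and -1.20 (adjusted p = 0.0324), and did not pass on days 8 and 14.

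Ppargc1b, the related coactivator of the same receptors, was lowest on day 3 and higher again by day 8. Its lowest, median and highest signals were 392, 602 and 800 in CTR and 133, 283 and 344 in SCI3d, with no overlap. The log2 fold change was -1.17 (SE 0.22, adjusted p = 0.000275). From SCI3d to SCI8d it rose by 0.997 (SE 0.22, adjusted p = 0.00499), again with no overlap. SCI8d lay close to CTR at 379, 465 and 839 (difference -0.18, 95% confidence interval -0.63 to 0.28, adjusted p = 0.718). In SCI14d the signals were 237, 357 and 457, and the difference from CTR was -0.68 (SE 0.22, adjusted p = 0.0856).

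Esrra, the orphan receptor through which PGC-1 acts on many respiratory genes, stayed low on all 3 days. Its lowest, median and highest signals were 2236, 3830 and 4505 in CTR, 1103, 1384 and 1738 in SCI3d, 1391, 1513 and 2122 in SCI8d, and 849, 1588 and 2205 in SCI14d. No injured untrained muscle reached the lowest CTR muscle. Its log2 fold changes were -1.30 (adjusted p = 6.53e-06), -1.14 (adjusted p = 0.000377) and -1.19 (adjusted p = 0.000423), each with an SE of 0.19. From SCI3d to SCI14d the difference was 0.11 (95% confidence interval -0.27 to 0.49).

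Esrrg, the ERR form enriched in slow oxidative muscle, fell on day 3 and was higher again by day 8. Its lowest, median and highest signals were 3850, 4476 and 5780 in CTR and 450, 1579 and 2365 in SCI3d, with no overlap. The log2 fold change on day 3 was -1.72 (SE 0.28, adjusted p = 4.09e-05). By day 8 it had risen by 1.12 over SCI3d (SE 0.28, adjusted p = 0.0124), to signals of 2011, 3326 and 3994, and no longer passed against CTR (log2 fold change -0.61, adjusted p = 0.211). In SCI14d the signals were 1165, 2373 and 4462 and the log2 fold change was -0.98 (SE 0.28, adjusted p = 0.0450). This call sits at the threshold: it was lost with the second Esrrg probe set (-0.82, adjusted p = 0.202), without the 3 arrays of high GAPDH ratio (-0.83, adjusted p = 0.129) and in 10 of the 12 fits that left out 1 CTR or SCI14d array, where adjusted p reached 0.138.

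Ppara, the receptor that drives fatty acid oxidation genes, was a dim probe set, brighter than 18.9% of all probe sets. At the lowest, median and highest, signals were 53.2, 78.2 and 182 in CTR and 6.66, 8.85 and 11.3 in SCI3d, with no overlap. Its log2 fold change on day 3 was -3.30 (SE 0.69, adjusted p = 0.000762). Because signals this low are close to the floor of the array, the size of this fold depends on the offset, and with 32 added to every signal it was -1.55. In SCI8d the signals were 13.7, 41.3 and 105, and in SCI14d 7.44, 9.43 and 93.7. On day 14, 4 of 6 muscles lay between 7.44 and 9.58 and the other 2 at 65.7 and 93.7, and the log2 fold change was -2.23 (SE 0.69, adjusted p = 0.0655). Within groups, replicates 5 and 6 were lower than replicates 1 to 4 by a mean of -0.94 for Ppara and -0.50 for Ppard. The labels give these numbers no meaning beyond the replicate. On day 14 Ppara passed in 5 of 13 alternatives. These were replicates 5 and 6 as a term (adjusted p = 0.0455), the replicate block (0.0447), median centring (0.0381), array weights (0.0256) and the methods' t-test before adjustment. In the other 8 it did not pass. Among these, adjusted p was 0.137 without the 3 arrays of high GAPDH ratio and 0.162 with the methods' t-test after adjustment.

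Ppard, the PPAR form most abundant in muscle, did not pass in any comparison. At the lowest, median and highest, signals were 473, 730 and 857 in CTR, 424, 655 and 817 in SCI3d, 443, 593 and 1009 in SCI8d and 422, 639 and 823 in SCI14d. The groups overlapped throughout. The 95% confidence interval of the difference from CTR was -0.52 to 0.30 on day 3, -0.58 to 0.24 on day 8 and -0.57 to 0.25 on day 14. Another Ppard probe set, dimmer and with r = 0.137 to the first over the 36 arrays, gave -1.42 on day 14 (SE 0.73, adjusted p = 0.305).

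Nrf1, a factor that binds promoters of nuclear genes for respiratory subunits, did not pass in any comparison and had higher means than CTR in every injured group. At the lowest, median and highest, signals were 299, 318 and 442 in CTR, 362, 405 and 581 in SCI3d, 304, 356 and 415 in SCI8d and 286, 422 and 562 in SCI14d. The log2 fold change was 0.32 on day 3 (95% confidence interval -0.03 to 0.67, adjusted p = 0.229), 0.08 in SCI8d (adjusted p = 0.836) and 0.27 in SCI14d (adjusted p = 0.432). The direction was not shared by all probe sets, and the dimmest Nrf1 probe set gave -0.52 on day 8 and -0.48 on day 14.

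Tfam, which packages mitochondrial DNA and starts its transcription, was highest in SCI3d. Lowest, median and highest signals were 3314, 3691 and 5072 in CTR, 3803, 4207 and 5439 in SCI3d, 2835, 3257 and 3704 in SCI8d and 2875, 3026 and 4522 in SCI14d. Against CTR it did not pass on any day (log2 fold changes 0.19, -0.26 and -0.28, adjusted p = 0.396, 0.266 and 0.273). From SCI3d it fell by 0.46 to SCI8d with no overlap (SE 0.14, adjusted p = 0.0352) and by 0.47 to SCI14d (SE 0.14, adjusted p = 0.0186).

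Nrip1 did not pass in any comparison. Lowest, median and highest signals were 610, 776 and 973 in CTR, 497, 635 and 1207 in SCI3d, 572, 842 and 2081 in SCI8d and 819, 1028 and 1857 in SCI14d. Its log2 fold change on day 14 was 0.54 (95% confidence interval 0.05 to 1.03, adjusted p = 0.221).

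**Figure D2:**
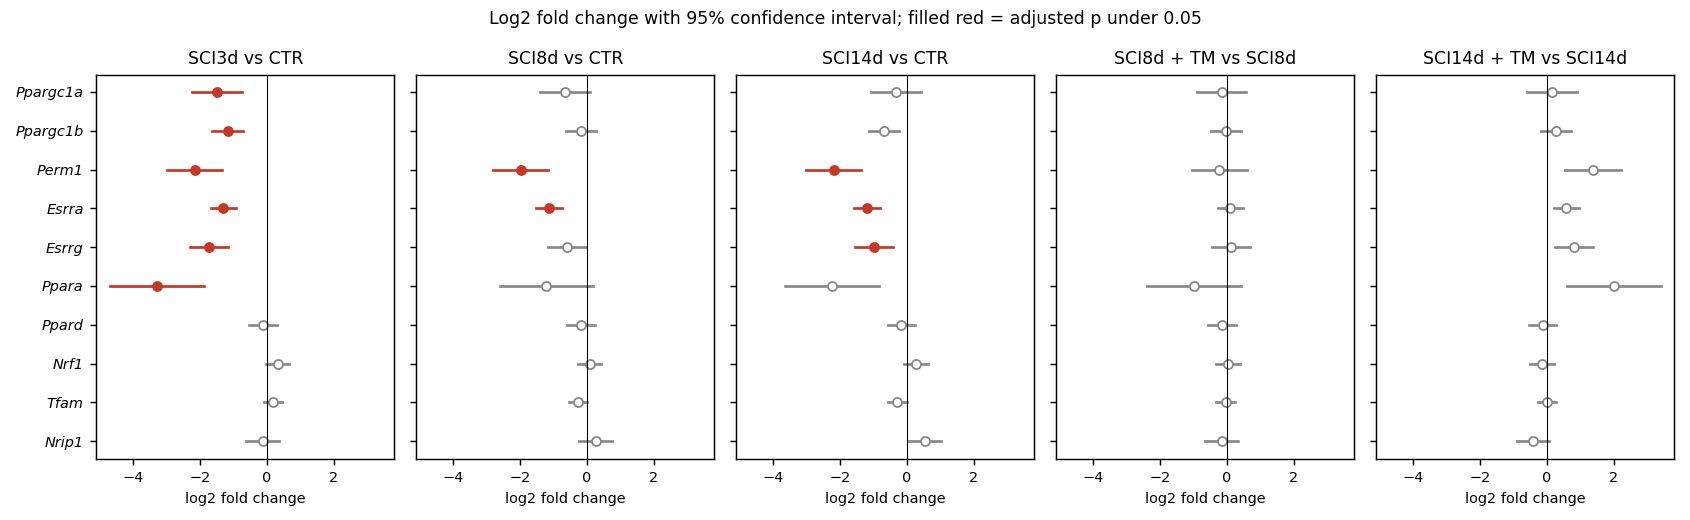
Log2 fold change (horizontal axis) of the 10 regulators in 5 comparisons, with 95% confidence intervals of the limma fit and filled red points where adjusted p was under 0.05. Red marks 6 genes on day 3, 2 on day 8, 3 on day 14 and 0 in either comparison of trained with untrained muscle.

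With training, no regulator passed on either day. In SCI8d + TM against SCI8d, 0 of 10 passed and 0 at an unadjusted p under 0.05, where 0% of all probe sets passed (limma; 0 by the methods' t-test after adjustment). The log2 fold changes lay between -0.97 for Ppara and 0.12 for Esrrg. In SCI14d + TM against SCI14d, 0 of 10 passed (limma; 0 by the methods' t-test after adjustment), where 0.00322% of all probe sets passed, and Perm1, Esrra, Esrrg and Ppara had an unadjusted p under 0.05, all of them higher with training. Of all 31042 probe sets, 1343 had an unadjusted p under 0.05 in limma on day 8 and 1849 on day 14. The median log2 fold change over the 10 genes was -0.09 on day 8 and 0.22 on day 14, beside 0.03 and -0.03 over all probe sets.

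On day 14 the trained muscles held 1577, 3288 and 4206 as the lowest, median and highest Perm1 signal, and 5 of 6 were above the highest untrained muscle (2112). Its log2 fold change was 1.38 (95% confidence interval 0.55 to 2.21, p = 0.00187 before and 0.503 after adjustment over all probe sets; exact permutation p = 0.00866 of a smallest possible 0.00216). SCI14d + TM was still below CTR in every muscle, the highest trained signal being 4206 and the lowest CTR signal 4224, although the difference of -0.82 did not pass (SE 0.41, adjusted p = 0.426). In SCI8d + TM the Perm1 signals were 439, 1268 and 1984, close to SCI8d (difference -0.22, 95% confidence interval -1.06 to 0.61).

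Esrra signals in SCI14d + TM were 1705, 2367 and 3106, a log2 fold change of 0.59 over SCI14d (95% confidence interval 0.21 to 0.97, adjusted p = 0.571). Esrrg signals were 3176, 3880 and 5663, a log2 fold change of 0.80 (0.23 to 1.38, adjusted p = 0.697), and they overlapped CTR. Ppara signals were 17.2, 88.4 and 163, a log2 fold change of 2.01 (0.61 to 3.42, adjusted p = 0.689) over a group in which 4 of 6 muscles lay near the floor, and 0.976 with 32 added to every signal. Ppargc1a itself was 585, 931 and 1227 in SCI14d + TM, a log2 fold change of 0.16 over SCI14d (-0.58 to 0.91, adjusted p = 0.990). In SCI8d + TM its signals were 275, 585 and 949, a log2 fold change of -0.16 over SCI8d (-0.90 to 0.59).

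The training difference itself was compared between the days. In limma's interaction term it was larger on day 14 by 1.60 for Perm1 (SE 0.58, adjusted p = 0.918) and by 2.99 for Ppara (SE 0.98, adjusted p = 0.903; 1.302 with 32 added to every signal). None of the 10 genes and 0% of probe sets passed. At an unadjusted p under 0.05 were 2 of the 10, these same genes, and 1659 of all 31042 probe sets. Against CTR, 3 of the 10 were lower in SCI8d + TM (Perm1 -2.21, Esrra -1.03 and Ppara -2.18), where 12.2% of probe sets passed. In SCI14d + TM against CTR 0 of 10 passed, where 0.358% of probe sets did. There Esrra alone of the 10 had an unadjusted p under 0.05 (-0.60, adjusted p = 0.154), beside 3747 of all 31042 probe sets.

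In the order of the group means, CTR was highest for 7 of the 10 genes, SCI14d + TM came next for Ppargc1a, Perm1, Esrra, Esrrg and Ppara, and SCI3d was lowest for Ppargc1a, Ppargc1b, Esrra, Esrrg, Ppara and Nrip1. No neighbours in any of these orders differed with an adjusted p under 0.05, the smallest being 0.0775 for Esrrg between SCI14d and SCI3d. Only groups further apart in the order were told apart.

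The other genes of the pathway were read from lists of known partners and targets. Of 36 measured PGC-1 partners and upstream regulators, 9 fell and 2 rose on day 3, 3 fell and 1 rose on day 8, and 0 passed on day 14 (median log2 fold change 0.00, -0.13 and -0.10). Of these 36, 18 had a higher and 18 a lower mean on day 3. Here and for the lists that follow, the share of all probe sets that passed as lower was 9.24%, 3.28% and 1.67% on the 3 days. Of all 31042 probe sets, 2241 passed as higher on day 3 and 934 on day 8. These shares include dim probe sets. With the dimmest 40% left out, 5311 passed on day 3 in either direction, 2270 on day 8 and 1299 on day 14. Over all probe sets the counts were 5109, 1952 and 989. More calls from fewer probe sets make the share among brighter ones larger than the 16.5%, 6.29% and 3.19% over all. The lists were not set against the brighter probe sets alone. On day 3 those with the smallest p were Esrrb, the third ERR gene (-1.22, adjusted p = 8.21e-05), Sirt3, the mitochondrial deacetylase (-1.22, adjusted p = 0.000352), and Rxrg, a retinoid X receptor that pairs with PPARs (-1.32, adjusted p = 0.000454). On day 8 they were Ncor1, a corepressor (-0.61, adjusted p = 0.00193), Flcn, a regulator of AMP-activated kinase signaling (-0.90, adjusted p = 0.00802), and Thrb, a thyroid hormone receptor (-0.83, adjusted p = 0.0105). Leaving out single arrays moved the count of fallen genes to 5 on day 3 (SCI3d replicate 1), to 6 on day 8 (SCI8d replicate 1) and to 1 or 6 on day 14 (CTR replicate 3 and SCI14d replicate 2), and without the 3 arrays of high GAPDH ratio it was 6 on day 3.

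Of 22 measured genes known as PPAR targets, 8 passed as lower in SCI3d, 15 in SCI8d and 8 in SCI14d, with 0 passing as higher (median log2 fold change -0.42, -1.09 and -0.74). On day 8 those with the smallest p were Acot2, a mitochondrial acyl-CoA thioesterase (-1.90, adjusted p = 0.000238), Fabp3, the fatty acid binding protein of heart and slow muscle (-2.07, adjusted p = 0.000958), and Mlycd, which degrades malonyl-CoA (-2.12, adjusted p = 0.00185). Lpl, the lipase that frees fatty acids from lipoproteins and is also made by adipocytes, fell in SCI3d (-1.34, adjusted p = 0.000323) and in SCI14d (-1.22, adjusted p = 0.00798). With training on day 14, 18 of 22 were higher on average and none passed, with Lpl at 0.98 (adjusted p = 0.324) and Fabp3 at 1.21 (adjusted p = 0.542). In the same comparison 7 of 8 adipocyte markers were higher on average, with Fabp4 at 0.46 (adjusted p = 0.807), and 8 of 9 fast fiber markers were lower on average, with Myh4 at -3.19 (adjusted p = 0.697). None of them passed, and their part in the training differences was not tested. The count on day 14 was 3 without the 3 arrays of high GAPDH ratio, 15 without SCI14d replicate 2, 4 without CTR replicates 1, 2 or 6 or SCI14d replicates 3, 4 or 5, and 5 without CTR replicate 4 or SCI14d replicate 6. On average the adipocyte markers, as given above, were lower in the same groups, although 1 of 8 passed as higher in SCI3d. Adipoq stood at -2.80 in SCI3d (adjusted p = 0.00222) and Fabp4 at -1.07 in SCI8d (adjusted p = 0.00196). The part of the adipocyte markers in these differences was not tested.

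Of 22 measured ERR targets, 8 were lower in SCI3d, 12 in SCI8d and 7 in SCI14d by the test, and 0 were higher (median log2 fold change -0.38, -0.51 and -0.50). Sdhd, a subunit of complex II, fell on day 3 (-0.94, adjusted p = 4.67e-06), as did Mfn2, which fuses mitochondria (-0.74, adjusted p = 0.00121), and Vegfa, an angiogenic factor (-0.62, adjusted p = 0.0150). On day 8 Fndc5, the precursor of irisin, had fallen by 1.37 (adjusted p = 0.00431) and Idh3b, a citrate cycle subunit, by 0.79 (adjusted p = 0.00423). On day 14 Sdhb (-0.69, adjusted p = 0.00563), Suclg1 (-0.60, adjusted p = 0.0173) and the mitochondrial creatine kinase Ckmt2 (-0.69, adjusted p = 0.0222) had the smallest p. With training on day 14, 20 of 22 were higher on average and none passed. The day 14 count was 2 without the 3 arrays of high GAPDH ratio and between 1 (without SCI14d replicate 4) and 13 (without SCI14d replicate 2), with 2 to 4 without CTR replicates 1, 2, 4, 5 or 6 or SCI14d replicates 3, 5 or 6. The day 3 count was 3 without CTR replicates 1 or 2 or SCI3d replicates 1 or 2, 4 without CTR replicate 4 and 5 without CTR replicate 6 or SCI3d replicate 6. The day 8 count was 7 without SCI8d replicate 2 and 6 without SCI8d replicate 4.

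Of 18 measured genes for transcription and upkeep of mitochondrial DNA, 6 passed as lower in SCI3d, 2 in SCI8d and 0 in SCI14d (median log2 fold change -0.19, -0.33 and -0.18). Mterf2 (-0.91, adjusted p = 0.0111) and Mgme1 (-0.71, adjusted p = 0.00534), a regulator and a nuclease of mitochondrial DNA, and Dguok (-0.71, adjusted p = 0.0132), a nucleoside kinase, fell on day 3. Lrpprc, which stabilizes mitochondrial transcripts (-0.72, adjusted p = 0.0124), and Polrmt, the mitochondrial RNA polymerase (-0.72, adjusted p = 0.0226), fell on day 8. The day 3 count was 1 without SCI3d replicate 2, 2 without SCI3d replicate 4 and 3 without CTR replicate 6. The day 8 count was 6 without SCI8d replicate 1, 4 without SCI3d replicate 3, 3 without the 3 arrays of high GAPDH ratio and 1 without CTR replicate 5 or SCI8d replicates 5 or 6, and the day 14 count was 2 without CTR replicate 3 and 4 without SCI14d replicate 2.

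**Figure D3:**
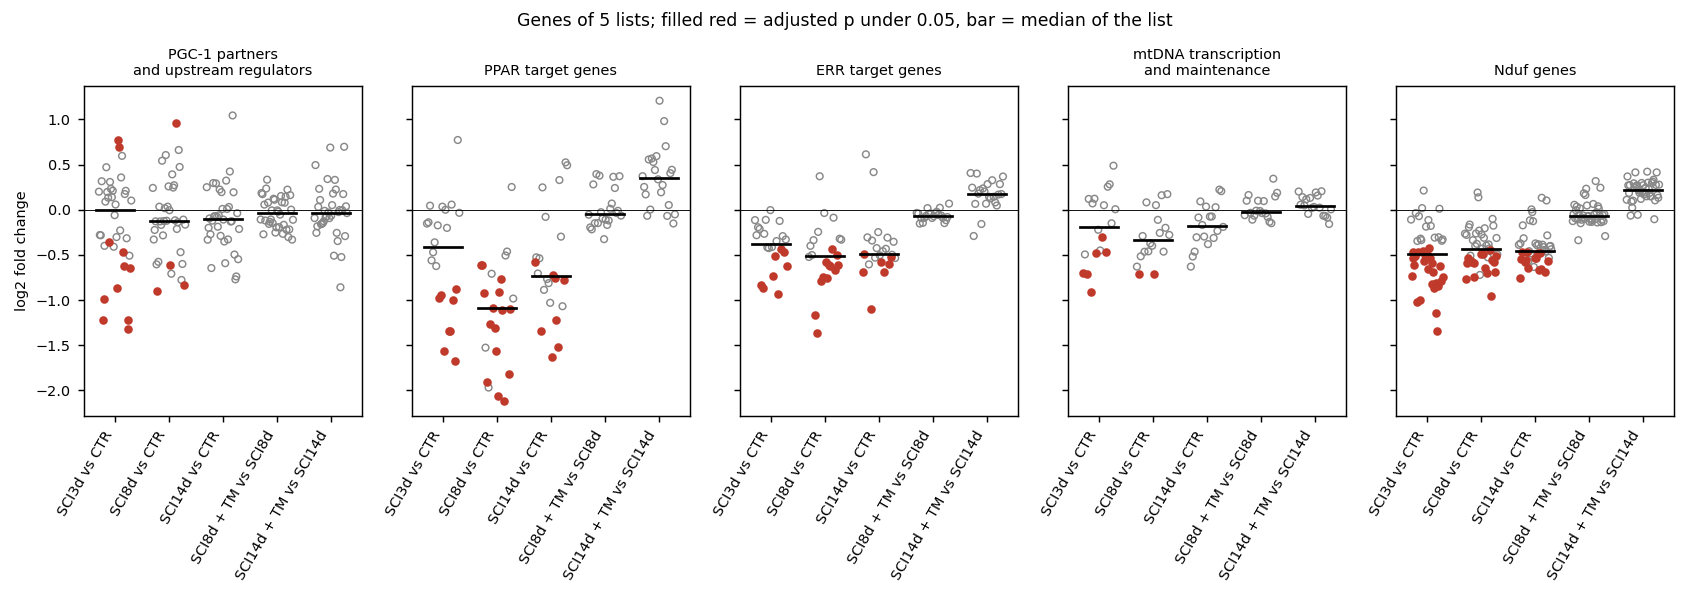
Log2 fold change (vertical axis) of each gene of 5 lists in 5 comparisons, with filled red points where adjusted p was under 0.05 and a bar at the median of the list. The medians of the PPAR targets, the ERR targets and the Nduf genes lie below 0 on all 3 days after injury and above 0 in trained against untrained muscle on day 14, where no gene is red.

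The Nduf genes were the set with which the regulators were compared. Of 42 measured, 26 passed as lower in SCI3d, 17 in SCI8d and 15 in SCI14d, and 0 as higher. On day 3 Ndufs1, a core subunit, had the most negative log2 fold change (-1.35, adjusted p = 2.87e-06), Ndufc2 the smallest p (-1.15, adjusted p = 2.62e-07), Ndufa8 stood at -0.998 (adjusted p = 9.74e-06), and the assembly factor Ndufaf4 was highest (0.21, adjusted p = 0.407). On days 8 and 14 Ndufa11 stood at -0.77 (adjusted p = 0.000336) and -0.76 (adjusted p = 0.000789). With training on day 14, 39 of 42 were higher on average and none passed, from Ndufs4 at -0.11 to Ndufb5 at 0.42 (adjusted p = 0.780). The day 14 count was 5 without the 3 arrays of high GAPDH ratio, 26 without SCI14d replicate 2, 5 without CTR replicate 1 or SCI14d replicate 4, 7 without SCI14d replicate 3, 8 without CTR replicate 2 and 9 without CTR replicate 6 or SCI14d replicates 5 or 6. The day 8 count was 9 without SCI8d replicate 4.

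For each muscle the log2 signals of the 42 Nduf genes, each minus its mean over the 36 arrays, were averaged to an Nduf mean. It was 0.34 ± 0.11 in CTR, -0.16 ± 0.11 in SCI3d, -0.09 ± 0.22 in SCI8d, -0.08 ± 0.26 in SCI14d, -0.13 ± 0.19 in SCI8d + TM and 0.13 ± 0.21 in SCI14d + TM (SD, n = 6 each). The values formed a continuous range from -0.52 to 0.44 with groups overlapping. Pearson's r and Spearman's rho with each of the 10 regulators were computed over the 36 arrays. The permutation p over 36 arrays shuffled arrays across the groups, so that it also holds the differences between groups. For the within-group r and rho, arrays were shuffled only inside their group. The slope within groups was then tested in limma with group terms and adjustment over all probe sets.

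Perm1 followed the Nduf mean most closely of the 10. Over 36 arrays r was 0.883 and rho 0.868 (permutation p = 1e-05 for each, the smallest that 100000 permutations can give), and r was 0.864 without the 2 arrays farthest from the median (CTR replicates 1 and 2). Only 0.126% of other probe sets had an r at least as high. Within groups, r was 0.763 and rho 0.757 (permutation p = 1e-05 for each), and the slope was 3.04 log2 units per unit of the Nduf mean (SE 0.45, adjusted p = 1.81e-05). The sign was positive in 6 of 6 groups, from 0.38 in CTR to 0.867 in SCI14d.

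Esrra had r = 0.818 and rho = 0.744 over 36 arrays (permutation p = 1e-05 for each), r = 0.774 without the 2 farthest arrays, and a within-group slope of 1.07 (SE 0.25, adjusted p = 0.00386; r = 0.614, permutation p = 0.00047). It was positive in 5 of 6 groups, from -0.198 in SCI8d + TM to 0.945 in SCI14d. Ppargc1a had r = 0.710 and rho = 0.769 (permutation p = 1e-05 for each), r = 0.689 without the 2 farthest arrays, and a within-group slope of 2.32 (SE 0.47, adjusted p = 0.000941; r = 0.654, permutation p = 3e-05). It was positive in 6 of 6 groups, from 0.544 to 0.792. Thus 3 of the 10 had a positive slope within groups that passed, where 5.19% of all probe sets did.

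Several measures moved with these relations. Within groups the Nduf mean correlated at -0.41 with the array's median signal and Perm1 at -0.40, and Esrra correlated at -0.67 with the GAPDH 3' to 5' ratio. Without the 3 arrays of high ratio the slope of Esrra was 0.73 (adjusted p = 0.0611) and no longer passed, while those of Perm1 and Ppargc1a passed. In arrays numbered 1 to 4 (24 arrays) the within-group r was 0.855 for Perm1, 0.681 for Esrra and 0.810 for Ppargc1a, and in those numbered 5 and 6 (12 arrays, where each group leaves a single difference) it was 0.491, 0.165 and 0.053.

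**Figure D4:**
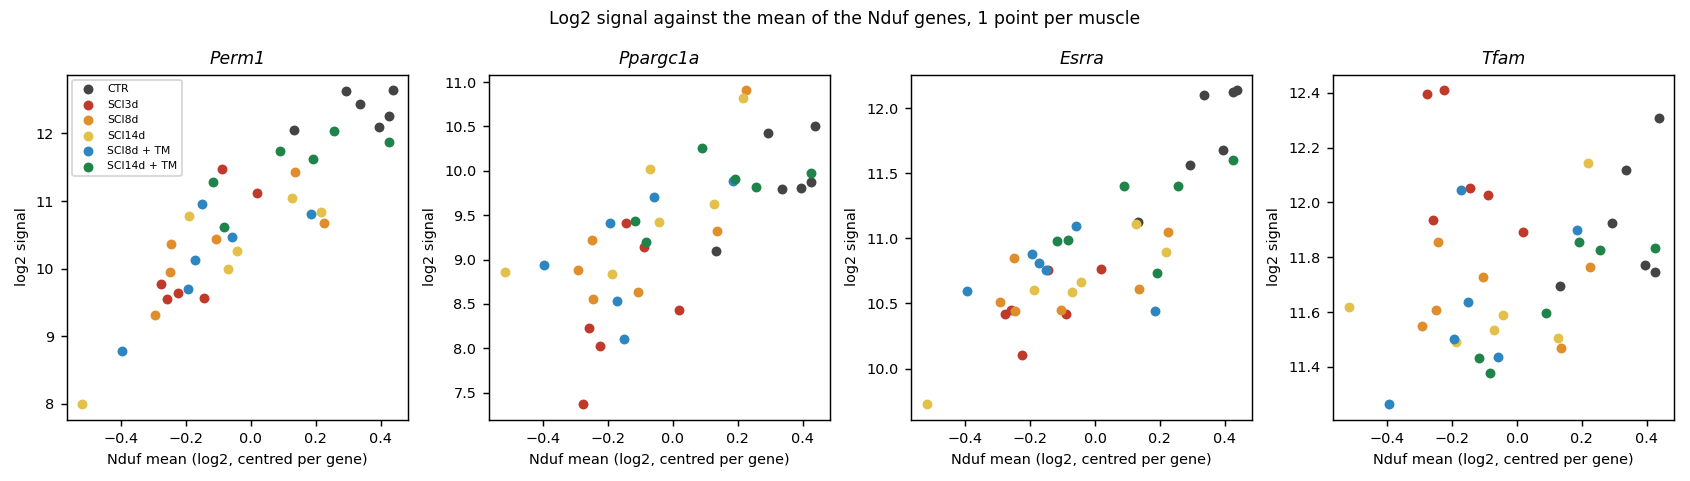
Log2 signal (vertical axis) of Perm1, Ppargc1a, Esrra and Tfam against the Nduf mean (horizontal axis, log2, centred per gene), with 1 point per muscle coloured by group. Perm1, Ppargc1a and Esrra rise with the Nduf mean (r = 0.883, 0.710 and 0.818), and for Tfam r is 0.233, with the SCI3d muscles high at a low Nduf mean.

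For the other regulators no slope within groups passed. Esrrg had r = 0.559 and rho = 0.593 over 36 arrays (permutation p = 0.00022 and 0.00024) and a slope of 0.89 within groups (adjusted p = 0.220). Ppara had r = 0.487 and rho = 0.463 (permutation p = 0.00254 and 0.00447) and a within-group r of 0.084 (permutation p = 0.693). Ppargc1b had r = 0.432 and rho = 0.377 (permutation p = 0.00794 and 0.0232), with a slope of 0.57 (adjusted p = 0.361). Tfam had r = 0.233 and rho = 0.220 (permutation p = 0.169 and 0.194) and a slope of 0.43 (adjusted p = 0.212), and Ppard r = 0.239 and rho = 0.232 (permutation p = 0.158 and 0.171). Nrf1 ran the other way, with r = -0.41 and rho = -0.41 (permutation p = 0.0128 and 0.0145) and a slope of -0.50 (adjusted p = 0.274), and Nrip1 had r = -0.18 and rho = -0.14 (permutation p = 0.296 and 0.421).

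Set against single Nduf genes, Perm1 correlated positively with 42 of 42 over the 36 arrays, at a median r of 0.751 and from 0.137 to 0.884, and exceeded 0.5 with 35. Esrra was positive with 41, at a median of 0.672, and Ppargc1a with 41, at a median of 0.547. Nrf1 was positive with 1 of 42. These correlations are a description, since the genes share the arrays, their scaling and their RNA.

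The regulators also varied together in pairs, given here as a description. Ppargc1b and Esrrg had r = 0.843 over 36 arrays and 0.749 within groups, and Perm1 and Esrra had r = 0.796 and 0.490. Ppargc1a and Perm1 had r = 0.511 and 0.342, and Esrrg and Nrf1 r = -0.63 and -0.60. Beyond the 10 genes, those with the highest r over the 36 arrays among 10366 candidates were Fem1a (0.908), Atp5f1c (0.901), an ATP synthase subunit, and Etfb (0.892), the electron transfer flavoprotein β subunit, for Perm1. For Esrra they were Fem1a (0.873), Ndufb6 (0.866) and Ndufb5 (0.849), for Ppargc1a Osbpl6 (0.902), Cc2d2a (0.895) and C20h6orf136 (0.885), and for Ppargc1b Atp1b1 (0.883), Tceal5 (0.817) and Nap1l4 (0.785). Esrrg was most like Tceal5 (0.906), Rnf11l2 (0.873) and Ppp1r36 (0.869), and Tfam most like Tfb2m (0.826), the mitochondrial transcription factor B2, Pfdn2 (0.815) and Spryd4 (0.814). Within groups Mpc1, a subunit of the mitochondrial pyruvate carrier, stood in place of Fem1a among the 3 genes most like Perm1 (0.799), Acadvl, a long-chain acyl-CoA dehydrogenase, in place of Spryd4 for Tfam (0.704), and Prkaa2, the catalytic α2 subunit of AMP-activated kinase, was among the 3 most like Esrra (0.734). For Ppara, Ppard, Nrf1 and Nrip1 the highest r over 36 arrays was 0.761 (Rnf166), 0.823 (Sp2), 0.678 (Rnf125) and 0.731 (Net1).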

How the data were processed

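Total RNA of 36 rat soleus muscles was hybridised to Affymetrix arrays with a single colour. The authors scaled the arrays in MAS 5.0 and deposited a linear signal intensity per probe set, 31099 in all; no genome build enters these values, and detection calls, scan dates and slides were not used here. Columns were matched to samples by name, and 0 columns of values were left unmapped. The 57 control probe sets were left out, log2 was taken with no offset, and limma (version 3.58.1 in R 4.3.3; group means, intensity trend, 30 residual degrees of freedom) was fitted to 31042 probe sets, with Benjamini-Hochberg adjustment over all of them and a threshold of 0.05. Genes came from the platform annotation, in which 20826 probe sets had 1 symbol, 436 several and 9780 none, with the brightest probe set per gene.

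Named genes are the 10 regulators, up to 3 genes of smallest p per list and comparison with the extreme Nduf genes, and the 3 genes most like each regulator by Pearson's r. The members and lists were chosen with earlier results of these data known. Single relations had permutation tests (100000 draws; SciPy and numpy, Python) and single comparisons an exact test over 924 arrangements. Array number limits the precision, p-values measure the spread between these 36 muscles, and the scripts were tested on simulated data. Promoter windows were taken from RefSeq (GRCr8), and motifs were searched on both strands. Alternatives were other scalings, an offset of 32, a filter on the dimmest 40% of probe sets, other variance models, weights, covariates, probe sets and the methods' t-test, and each array left out. Leaving out 3 arrays with a high GAPDH ratio and adding the array's median signal as a covariate were chosen after seeing the data.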

Additional observations from a re-analysis of the deposited data

Results flagged for a closer look

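Of 66 sets of 6 arrays (the 10 regulators and the Nduf mean in 6 groups), 7 held an array whose gap to its nearest neighbour exceeded Dixon's 95% limit for 6 values, as a share of the group's range on the log2 scale; chance flags about 1 in 20. Ppargc1a in SCI8d replicate 1 was 1922, with the others between 377 and 641 (0.675), and the same array was high in Nrip1 at 2081, with the others between 572 and 918 (0.634). Perm1 in SCI14d replicate 4 was 256, with the others between 1024 and 2112 (0.657); this array also had the lowest Nduf mean, -0.52, and a GAPDH 3' to 5' ratio of 1.35. Esrrg in SCI3d replicate 2 was 450, with the others between 1328 and 2365 (0.652), and Nrf1 in the same array was 581, with the others between 362 and 420 (0.683). Nrf1 in SCI14d + TM replicate 6 was 308, with the others between 370 and 406 (0.663). Tfam in SCI14d replicate 2 was 4522, with the others between 2875 and 3147 (0.8). What set these arrays apart was not tested.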

How the results depend on the processing

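The number of the 10 regulators that passed stayed within 1.5 times of the main count in every alternative, with these exceptions. On day 14 against CTR, 3 became 5 with median centring, 6 with the methods' t-test before adjustment and 0 after it (Perm1 adjusted p = 0.0616, Esrra 0.061). On day 8 against CTR, 2 became 4, and with training on day 14, 0 became 4, with the methods' t-test before adjustment. Over all probe sets that unadjusted test gave 6272 on day 8, 5238 on day 14 and 1785 with training on day 14. With 1 array left out, the count on day 14 ran from 2 to 4, and the others were 6 on day 3, 2 on day 8, 0 for both training comparisons and their difference, and 3 for the slopes on the Nduf mean. Over all probe sets, array weights gave 3967 calls on day 8 and 2128 on day 14 beside 1952 and 989, the methods' t-test after adjustment 882 and 335, and scaling to GAPDH 1094 on day 8. The median over all probe sets became, when scaled to GAPDH, 0.318 on day 14, 0.122 for training on day 8 and -0.208 for the difference between the training effects.

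Replicate numbers did not pair the arrays (correlation of same-numbered deviations -0.101 to 0.161); with the replicate block 6, 2, 4, 0, 0 and 0 regulators passed, Ppara joining on day 14 (adjusted p = 0.0447).

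No result that passed changed sign. Others that had not passed did. Under quantile normalization these were Nrf1 with training on day 8 (-0.028) and Tfam with training on day 14 (-0.006), and under median centring Nrf1 with training on day 8 (-0.051). Scaled to GAPDH they were Ppard on day 14 against CTR (0.074), with training on day 8 Ppargc1b (0.067) and Tfam (0.06), on day 14 Tfam (-0.049), and the training differences of Ppard (-0.13) and Tfam (-0.11). With array weights they were Ppargc1a (0.005) and Ppargc1b (0.015) with training on day 8 and the training difference of Ppard (-0.037). With the GAPDH ratio as a covariate they were Ppard on day 3 (0.006) and Ppargc1b with training on day 8 (0.022). Without the 3 arrays of high ratio they were Ppargc1a (-0.01) and Tfam (-0.039) with training on day 14, the training differences of Ppard (-0.016) and Tfam (-0.007) and the slope of Nrip1 (0.016). Other probe sets gave 0.29 for Ppargc1a with training on day 8 and -0.09 for its training difference, 0.77 for Ppard with training on day 14, for Nrf1 -0.52 on day 8, -0.48 on day 14 and 0.13 with training on day 14, and with the third Nrf1 probe set -0.32, 0.23 and 0.55 for training on day 8, on day 14 and their difference. With 1 array left out, the ranges that crossed 0 were, with training on day 8, Ppargc1a -0.316 to 0.173, Ppargc1b -0.147 to 0.126, Perm1 -0.433 to 0.048, Ppard -0.23 to 0.008, Nrf1 -0.067 to 0.172, Tfam -0.115 to 0.04 and Nrip1 -0.29 to 0.083. The others were Tfam with training on day 14 (-0.034 to 0.106), Ppard on day 3 (-0.216 to 0.008), the training differences of Ppargc1a (-0.009 to 0.567), Ppard (-0.131 to 0.107) and Tfam (-0.033 to 0.139), and the slope of Ppara (-0.061 to 1.071). The cause of these changes was not tested.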
